A study of Mus musculus with 46 samples.

Results

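The 10 genes described here encode the parts of the MHC class I pathway of the mouse: the heavy chains H2-K1 and H2-D1, their light chain B2m, the peptide transporter genes Tap1 and Tap2, the loading factor Tapbp, the immunoproteasome subunits Psmb8, Psmb9 and Psmb10, and the class I regulator Nlrc5. They were taken by symbol, and all 10 were present among the 37108 genes of the gene expression table and among the 35976 genes of the transcript table used for established iPSC. The study delivered Oct4 together with Nanog, or with a Nanog that carries at its N-terminus the BRG1 interacting domain (BiD) of SS18, into mouse embryonic fibroblasts (MEF) and followed their reprogramming to induced pluripotent stem cells (iPSC) by mRNA-seq. BRG1 is the ATPase of the BAF chromatin remodelling complex, and the question behind the comparison is how the fused domain changes the course of reprogramming.

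The reprogrammed groups came from OG2 MEF, which carry an Oct4 reporter and were made from crosses of OG2 males with 129 females, and the mES came from embryos of OG2 mice. The NanogBiD groups received Oct4 and NanogBiD and the NanogWT groups Oct4 and wild-type Nanog, all by pMXs retrovirus, a kind of vector whose promoter is known to be silenced in pluripotent cells. Cells were collected on 8 days from the end of infection (D0) to D12, namely D0, D1, D3, D5 and D7, then D8, D10 and D12. There were 2 libraries a day except for NanogBiD at D8, which had 1, so that the time course held 31 libraries. In both combinations the medium was changed to iCD3 at D0, when infection ended, and after about 7 days to N2B27 with 2iL. Day and medium therefore cannot be told apart between D0 and the later days, nor after D7. MEF without factors (2 libraries) and mouse embryonic stem cells (mES, 1 library) gave the start and end points, and 12 iPSC libraries, 6 of each combination, came from samples labelled iPSC1 or iPSC2 at different passages, and label and passage cannot be told apart.

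Class I molecules display short peptides from inside the cell to T cells. The proteasome cuts the peptides, Tap1 and Tap2 carry them into the endoplasmic reticulum, and tapasin (Tapbp) holds the transporter beside an empty heavy chain and B2m until a peptide binds. Interferons raise the whole set through STAT and IRF factors and Nlrc5, and NF-kappaB acts on class I genes too. Pluripotent cells are known for low class I on their surface.

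Of the 10 genes, 7 are on chromosome 17 (GRCm38.p6), Psmb10 and Nlrc5 are on chromosome 8, and B2m is on chromosome 2. On chromosome 17 Psmb9, Tap1, Psmb8 and Tap2 stand side by side within 34292 bases, with 225 bases between the starts of Psmb9 and Tap1, which run away from each other. The 250 bases before the RefSeq start are shown for both heavy chains, B2m and Tap1, because these genes carry the time course described next and because the Tap1 window shares 225 bases with that of Psmb9. The promoter table holds 2 starts for H2-K1, and the window before the one further upstream is shown; it lies within the gene as RefSeq places it (chr17:33996012-34000619). Capitals mark matches, on either strand, to AANNGAAA (IRF core), GGGNNTTCC (NF-kappaB), CCAAT (NF-Y) or TGACG (core of the CREB site).
H2-K1, chr17:34000348-34000597, minus strand: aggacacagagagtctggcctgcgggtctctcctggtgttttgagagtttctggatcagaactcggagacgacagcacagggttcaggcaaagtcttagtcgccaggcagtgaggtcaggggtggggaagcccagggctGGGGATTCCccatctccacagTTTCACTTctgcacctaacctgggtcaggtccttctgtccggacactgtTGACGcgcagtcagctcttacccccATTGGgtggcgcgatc
H2-D1, chr17:35262844-35263093, plus strand: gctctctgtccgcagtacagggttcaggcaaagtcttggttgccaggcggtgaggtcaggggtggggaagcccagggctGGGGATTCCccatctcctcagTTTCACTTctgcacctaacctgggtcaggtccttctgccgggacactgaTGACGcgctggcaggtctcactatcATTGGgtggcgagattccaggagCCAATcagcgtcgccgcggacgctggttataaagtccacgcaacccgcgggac
B2m, chr2:122147437-122147686, plus strand: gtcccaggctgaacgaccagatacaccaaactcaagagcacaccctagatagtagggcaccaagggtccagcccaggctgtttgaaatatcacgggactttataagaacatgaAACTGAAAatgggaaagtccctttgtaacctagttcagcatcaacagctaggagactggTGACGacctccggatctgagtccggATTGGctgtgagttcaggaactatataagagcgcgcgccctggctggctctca
Tap1, chr17:34187306-34187555, plus strand: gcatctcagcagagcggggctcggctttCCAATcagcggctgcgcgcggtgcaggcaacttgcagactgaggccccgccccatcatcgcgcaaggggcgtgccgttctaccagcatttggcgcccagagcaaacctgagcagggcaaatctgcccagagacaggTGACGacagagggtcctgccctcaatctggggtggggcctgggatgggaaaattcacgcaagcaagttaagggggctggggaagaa
The IRF letters were found in 3 of the 8 members with a RefSeq window, H2-K1, H2-D1 and B2m, and in 21.3% of all 32817 windows of this length. The NF-kappaB letters stood in H2-K1 and H2-D1 and in 4.97% of all windows. The CREB letters stood in 5 of the 8 (17.7% of all windows) and the NF-Y letters in 6 of the 8 (33.8%). Tap1 and Psmb9 are counted separately here, but their CREB match is the same bases read on opposite strands, and so is their NF-Y match. TTCNNNGAA, a STAT motif, was found before Psmb8 alone among the members and in 7.01% of all windows. In H2-K1, H2-D1 and B2m the IRF, CREB and NF-Y letters follow each other in that order towards the start, none overlapping. These are matches of letters in a window, and no binding was measured here. Tap2 and Nlrc5 had no window.

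Values are FPKM (fragments mapped to a gene, divided by its transcript length and by library size), which are per length and can be compared between genes of a library. FPKM holds no read counts, but the commonest ratio of low values between 2 libraries gave a relative depth, scaled to the median of the D0 to D7 libraries. It lay between 0.872 and 1.10 in the libraries of D0 to D7, between 0.810 and 1.02 in NanogBiD from D8 on and between 1.85 and 3.18 in NanogWT from D8 on, so that from D8 depth and combination cannot be told apart. Between 12442 and 14431 genes of a time-course library reached 1 FPKM. The MEF libraries carried their fibroblast markers (10 genes, summed level 6658 to 7471 FPKM) and the mES library its pluripotency markers (10 genes, summed level 3600 FPKM). The labels do not say that replicates are separate cultures, so the p-values measure only the spread between these libraries. H2-K1, H2-D1 and the H2-Q and H2-T genes are near-identical copies whose reads can be assigned to each other, and a mixed OG2 and 129 background may carry class I alleles that differ from the reference; neither effect was tested. In GENCODE B2m lies wholly within Patl2 on the opposite strand, Tap1 and Psmb9 overlap by 212 bases on opposite strands, and Tapbp shares 3422 bases with Zbtb22 on its own strand. Tap2, Psmb8, Psmb10 and Nlrc5 overlap RNA genes on the opposite strand. The strand setting of the counting is not stated, so reads of overlapping genes cannot be told apart.

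**Figure D1:**
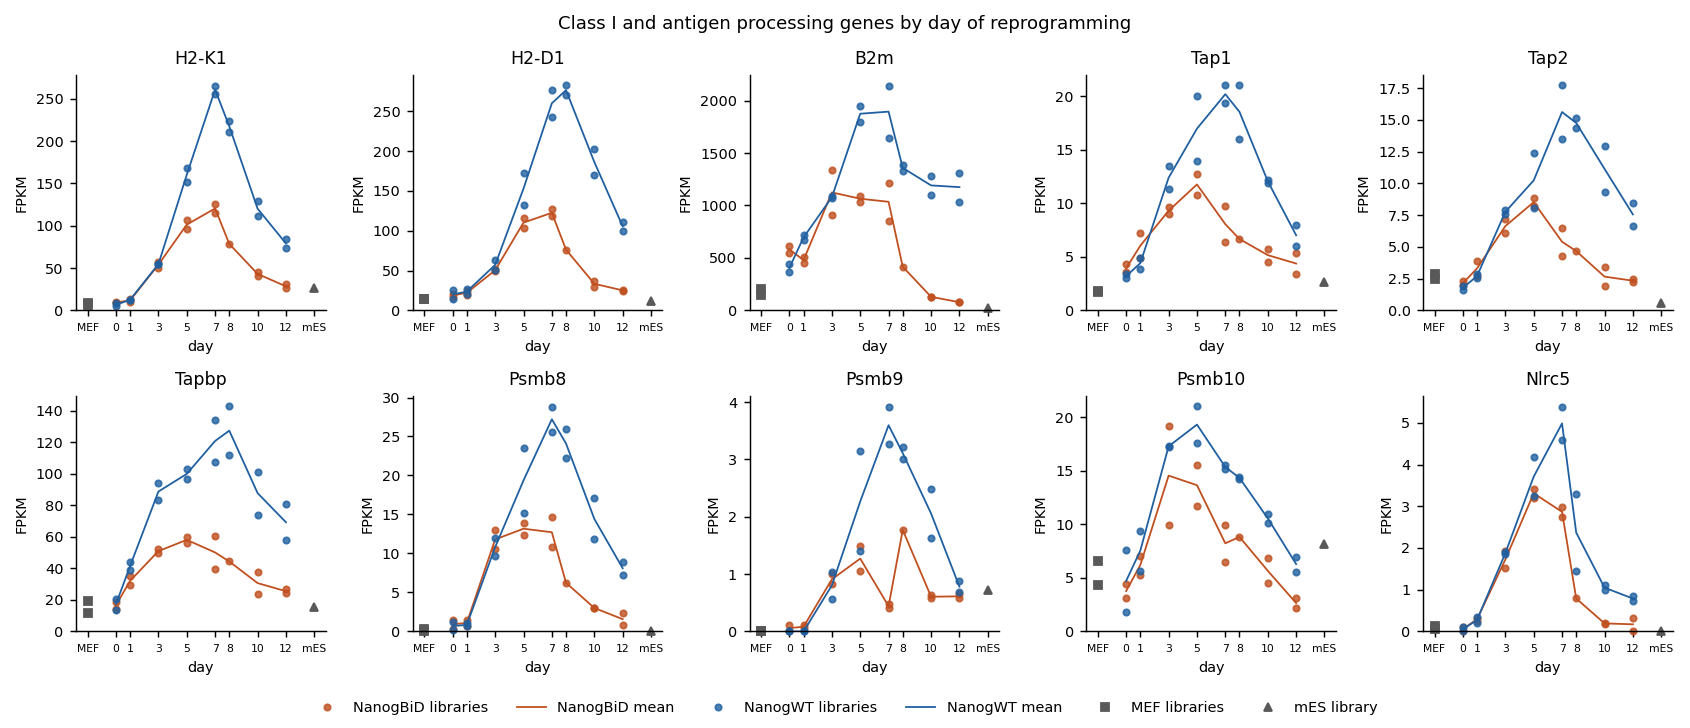
Level of each of the 10 genes (vertical axis, FPKM, a scale of its own in each panel) by day (horizontal axis), with 1 point per library, lines through the group means, and MEF and mES at the ends. The NanogWT points of H2-K1 reach 256 to 266 FPKM at D7, and the NanogBiD points 115 to 126.

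In both combinations the class I genes had their highest mean level between D3 and D8, and it was lower again at D12. The mean of every gene was higher at D7 than at D0 in both combinations. The test given below called this rise for all 10 genes with NanogWT (12.0% of all genes tested) and 6 with NanogBiD (12.7%). At D7 the NanogBiD libraries were the lower ones for every gene. H2-K1 and H2-D1 are the classical heavy chains that hold the peptide. H2-K1 read 8.13 and 4.86 FPKM at D0 with NanogWT, 266 and 256 at D7, and 73.5 and 84.6 at D12. With NanogBiD it read 9.93 and 8.88 at D0, 115 and 126 at D7, and 26.0 and 30.8 at D12. The D7 libraries are far above those of D0 and D12 in either combination, and at D0 the NanogBiD pair is the higher one. H2-D1 ran beside it, from 25.8 and 13.9 at D0 to 277 and 243 at D7 and 111 and 99.6 at D12 with NanogWT. With NanogBiD it went from 20.1 and 17.2 through 127 and 118 to 23.9 and 26.2. Its NanogWT libraries at D7 and D8 (283 and 270) overlap, so the top of the course cannot be placed on either day. In the untreated MEF the heavy chains were low, at 8.11 and 5.79 for H2-K1 and 14.6 and 14.2 for H2-D1, and the mES library read 26.9 and 11.7.

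B2m, the light chain shared by all class I molecules, was the most abundant of the 10 in every time-course library and parted most between the combinations at the end. It read 446 and 363 FPKM at D0, 1647 and 2143 at D7 and 1036 and 1314 at D12 with NanogWT. The D0 libraries of NanogBiD read 548 and 615, those of D7 856 and 1214, those of D10 130 and 128, and those of D12 75.0 and 80.1. The NanogBiD libraries of D10 and D12 are the lowest of the time course and below both MEF libraries (206 and 150), while the NanogWT libraries of these days read 1036 FPKM or more. The mES library read 25.7.

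Tap1 and Tap2 form the peptide transporter. Tap1 read 3.37 and 3.03 FPKM at D0, 21.1 and 19.3 at D7 and 6.02 and 8.02 at D12 with NanogWT, against 4.30 and 3.56, 9.71 and 6.40, and 3.43 and 5.32 with NanogBiD. Tap2 read 1.90 and 1.63, 17.7 and 13.5, and 8.49 and 6.63 with NanogWT, against 2.27 and 2.00, 6.51 and 4.30, and 2.23 and 2.43 with NanogBiD. Both genes were already at their highest at D5 with NanogBiD (Tap1 12.7 and 10.8, Tap2 8.85 and 8.20), and with NanogWT at D7, where the D8 libraries overlap with them. Tapbp, the loading factor, read 20.7 and 13.8 at D0, 134 and 108 at D7 and 80.7 and 57.8 at D12 with NanogWT. With NanogBiD it read 18.8 and 14.4, 60.4 and 39.8, and 26.6 and 24.4. For all 3 loading genes the pairs of D7 do not overlap between the combinations.

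Psmb8, Psmb9 and Psmb10 are the catalytic subunits that replace Psmb5, Psmb6 and Psmb7 in the immunoproteasome. Psmb8 read 1.16 and 0.207 FPKM at D0, 28.8 and 25.6 at D7 and 8.94 and 7.28 at D12 with NanogWT. With NanogBiD it read 1.51 and 0.301, 14.6 and 10.8, and 2.30 and 0.844. It was near 0 in MEF (0.107 and 0.314) and was listed at 0 in mES. Psmb9 stayed low throughout and was listed at 0 in both MEF and both NanogWT D0 libraries. It read 3.28 and 3.92 at D7 with NanogWT and 0.476 and 0.406 with NanogBiD, but the highest NanogBiD value was that of the D8 library (1.77). Psmb10 read 7.60 and 1.83 at D0, 15.6 and 15.2 at D7 and 7.00 and 5.59 at D12 with NanogWT, against 3.13 and 4.42, 9.99 and 6.49, and 3.09 and 2.21 with NanogBiD. For Psmb10 the NanogWT pair of D0 lies further apart than that of any other NanogWT day. Nlrc5, which drives transcription of class I genes, was near 0 in MEF (0.141 and 0.0486). It read 4.59 and 5.38 at D7 with NanogWT and 2.98 and 2.75 with NanogBiD, and 0.725 and 0.852 against 0.0193 and 0.323 at D12.

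Between D0 and D7 the test called all 10 members higher with NanogWT, where 12.0% of the 16842 genes tested were called higher, and 6 of 10 with NanogBiD, where 12.7% were. A call needs an adjusted p below 0.05 in limma on log2(FPKM + 1), Benjamini-Hochberg over all genes tested, and a difference of at least 1 on that log2 scale, where the added 1 makes the differences between low values too small. With NanogWT the rise was 5.16 for H2-K1 (SE 0.17), 3.70 for H2-D1 (SE 0.21), 2.22 for B2m (SE 0.20), 4.12 for Psmb8 (SE 0.33) and 2.51 for Nlrc5 (SE 0.19). With NanogBiD H2-K1 rose by 3.54 (SE 0.17), H2-D1 by 2.65, Psmb8 by 2.91, Nlrc5 by 1.88, Tapbp by 1.52 and Tap2 by 1.01 (adjusted p = 0.0012). B2m (0.81, adjusted p = 0.0027), Tap1 (0.86) and Psmb10 (0.94) did not reach the fold limit with NanogBiD, and Psmb9 (0.45, adjusted p = 0.072) passed neither limit. The median over the members was 2.54 with NanogWT and 1.27 with NanogBiD, beside 0.12 and 0.24 over all genes tested. Quantile normalization brought the NanogBiD median of all genes from 0.24 to 0.02, and the count of members from 6 to 5. Tap2 lost its call without replicate 1 of NanogBiD at D7 or replicate 2 at D0, whereas Tap1 and Psmb10 gained one without replicate 2 at D7 (8 called). With NanogWT 9 were called without replicate 2 of D0 or with only the compared groups in the fit, Psmb10 being lost in both.

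The rise itself differed between the combinations. In the test of the change from D0 to D7 in NanogBiD minus that in NanogWT, 7 of 10 members were called lower, where 4.88% of the genes tested were. H2-K1 differed by -1.62 (SE 0.24, adjusted p = 9.6e-05), Psmb9 by -1.75 (SE 0.28, adjusted p = 0.00022), Tap2 by -1.57 (SE 0.32), Tap1 by -1.48 (SE 0.32), B2m by -1.41 (SE 0.28), Tapbp by -1.23 (SE 0.35) and H2-D1 by -1.05 (SE 0.30, adjusted p = 0.023). Psmb8 (-1.21, adjusted p = 0.087), Psmb10 (-0.79) and Nlrc5 (-0.63) did not pass. These values hold the differences at D0 as well as those at D7. At D0 H2-K1 and B2m were higher with NanogBiD by 0.51 and 0.53, neither being called. H2-D1 and Tapbp were lost without replicate 1 of NanogBiD at D0, replicate 2 of NanogBiD at D7, replicate 1 of NanogWT at D7 or replicate 2 of NanogWT at D0 (5 called each), while 9 were called without replicate 1 of NanogWT at D0 and 8 without replicate 2 of NanogBiD at D0. With only the compared groups in the fit 4 were called, H2-D1, B2m and Tapbp being lost.

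**Figure D2:**
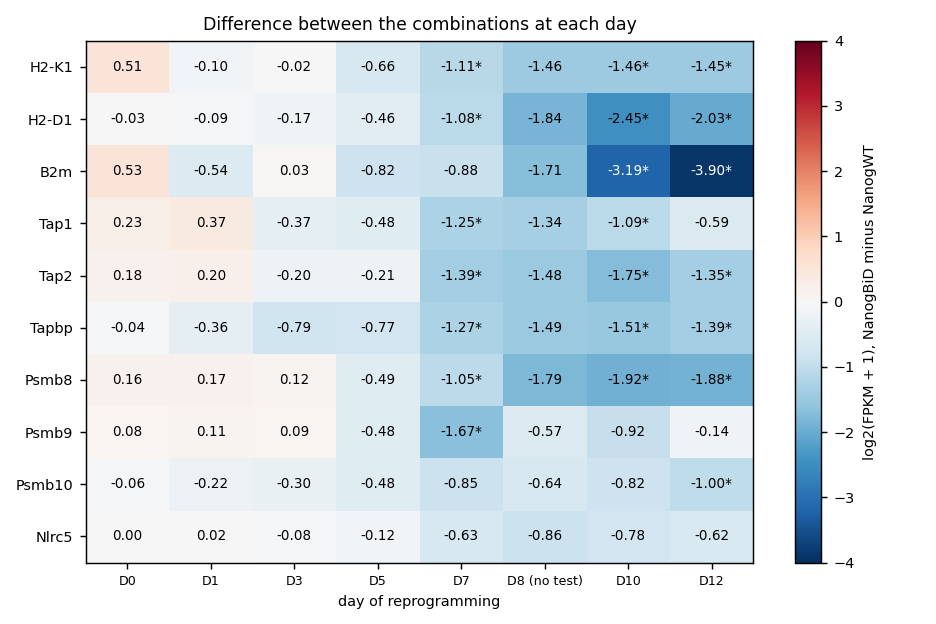
Difference in log2(FPKM + 1), NanogBiD minus NanogWT, for each member (vertical) and day (horizontal); a star marks a call and D8, with 1 NanogBiD library, has no test. Stars begin at D7, and the strongest difference is that of B2m at D12, -3.90.

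Compared day by day, members were first called at D7. No member was called at D0 (0.76% of all genes called in either direction) or at D1 (1.33%) by limma, with 2 and 1 members at an unadjusted p below 0.05. With so few genes called, these counts say nothing particular about the members. At D0 H2-K1 (0.51, adjusted p = 0.13) and B2m (0.53, adjusted p = 0.19) were the higher ones with NanogBiD. B2m was lower with NanogBiD at D1 (-0.54, adjusted p = 0.20). At D3 none was called (3.7% of all genes), but Tapbp was lower by adjusted p alone (-0.79, adjusted p = 0.047). At D5 none was called either (6.48% of all genes) with 6 members at an unadjusted p below 0.05, and H2-K1 (-0.66, adjusted p = 0.0096), B2m (-0.82, adjusted p = 0.0075) and Tapbp (-0.77, adjusted p = 0.036) had an adjusted p below the limit. At D5 both NanogBiD libraries lay below both NanogWT libraries for 7 of 10 members, beside 24.9% of all genes; Tap2, Psmb9 and Nlrc5 overlapped. At D7 they did so for 10 of 10, beside 24.1% of all genes.

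At D7, 7 of 10 members were called lower with NanogBiD, beside 4.65% of the genes tested. The log2 difference was -1.11 for H2-K1 (SE 0.17, adjusted p = 4.8e-05) and -1.08 for H2-D1 (SE 0.21, adjusted p = 0.00078), and the mean FPKM of these heavy chains was 2.17 and 2.12 times as high with NanogWT. The transporter and loading genes differed by -1.25 for Tap1 (SE 0.23), -1.39 for Tap2 (SE 0.23) and -1.27 for Tapbp (SE 0.24). Psmb9 differed by -1.67 (SE 0.20, adjusted p = 2.8e-06), at levels of a few FPKM, and Psmb8 by -1.05 (SE 0.33, adjusted p = 0.021). B2m (-0.88, adjusted p = 0.0024) and Nlrc5 (-0.63, adjusted p = 0.019) stayed under the fold limit, and Psmb10 (-0.85, adjusted p = 0.099) failed the test. The members' median was -1.09 and that of all genes 0.08. The count was 5 without replicate 2 of NanogBiD (Tap1, Tapbp and Psmb8 lost and B2m gained), 6 without replicate 1 of NanogWT (H2-D1 and Psmb8 lost, B2m gained) and 6 without replicate 2 of NanogWT (Psmb8 lost). With only the compared groups in the fit it was 6 (Tapbp lost). The summed fibroblast markers were 1043 to 1311 FPKM with NanogBiD and 1938 to 1997 with NanogWT at this day, the summed pluripotency markers 129 to 137 and 2.80 to 3.63, and the summed leukocyte markers (10 genes) 4.98 to 9.33 and 7.93 to 17. Their part in the differences was not tested, and in bulk RNA fewer cells that express a gene and less of its RNA per cell cannot be told apart.

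At both D10 and D12 the heavy chains, B2m, Tap2, Tapbp and Psmb8 were called lower with NanogBiD. The D8 library of NanogBiD read 78.6 FPKM for H2-K1, 76.2 for H2-D1 and 416 for B2m, against 224 and 211, 283 and 270, and 1329 and 1388 with NanogWT. At D10, 7 of 10 members were called lower (12.3% of all genes tested). B2m differed by -3.19 (SE 0.20, adjusted p = 2.6e-10), H2-D1 by -2.45, Psmb8 by -1.92, Tap2 by -1.75, Tapbp by -1.51, H2-K1 by -1.46 and Tap1 by -1.09. Tap1 was lost without replicate 2 of NanogBiD and Psmb9 (-0.92) gained without replicate 1 of NanogWT. At D12, 7 of 10 were called lower (9.97% of all genes tested). B2m differed by -3.90 (SE 0.20, adjusted p = 1.9e-11), which is a mean FPKM 15.2 times as high with NanogWT, H2-D1 by -2.03 (SE 0.21), Psmb8 by -1.88, H2-K1 by -1.45, Tapbp by -1.39, Tap2 by -1.35 and Psmb10 by -1.0 (adjusted p = 0.031). Psmb10 lost its call whichever library was left out, and Tap1 (-0.59), Psmb9 (-0.14) and Nlrc5 (-0.62) were not called. At D12 the summed fibroblast markers were 454 to 596 FPKM with NanogBiD and 3559 to 4017 with NanogWT, and all 10 of them were called lower with NanogBiD. Their part in the class I differences, and that of the greater depth of NanogWT, was not tested.

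Between D7 and D12 the test called 6 of 10 members lower with NanogBiD (8.37% of all genes tested) and 7 of 10 with NanogWT (4.62%). In NanogBiD B2m fell by 3.70 (SE 0.20, adjusted p = 5.9e-11), Psmb8 by 2.46, H2-D1 by 2.25, H2-K1 by 2.05, Nlrc5 by 1.74 and Psmb10 by 1.32. In NanogWT Nlrc5 fell by 1.74, H2-K1 by 1.71, Psmb8 by 1.64, Tap1 by 1.41, Psmb9 by 1.37, H2-D1 by 1.29 and Psmb10 by 1.17, while B2m was lower by less than the fold limit (-0.69, adjusted p = 0.015). Psmb10 is the unstable call here: it was lost without replicate 1 of D7 or replicate 2 of D12 with NanogBiD, and without any of the NanogWT libraries. Leaving out replicate 2 of NanogBiD at D7 gave 9 calls, with Tap1, Tap2 and Tapbp added.

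The change from D7 to D12 differed between the combinations, by the call, for 2 members. The change of B2m from D7 to D12 differed by -3.01 (NanogBiD minus NanogWT, SE 0.28, adjusted p = 3.9e-07), 1 of 10 members in that direction beside 7.33% of all genes. That of Psmb9 differed by 1.53 (SE 0.28, adjusted p = 0.00046), 1 of 10 beside 6.78% of all genes, Psmb9 having fallen in NanogWT from a level that NanogBiD had not reached. H2-D1 (-0.95, adjusted p = 0.029) was under the fold limit and was called without replicate 1 of NanogWT at D7 or replicate 2 of either combination at D12. The difference was 0.03 for Tap2, 0.01 for Nlrc5 and -0.11 for Tapbp, with SE 0.32, 0.27 and 0.35.

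**Figure D3:**
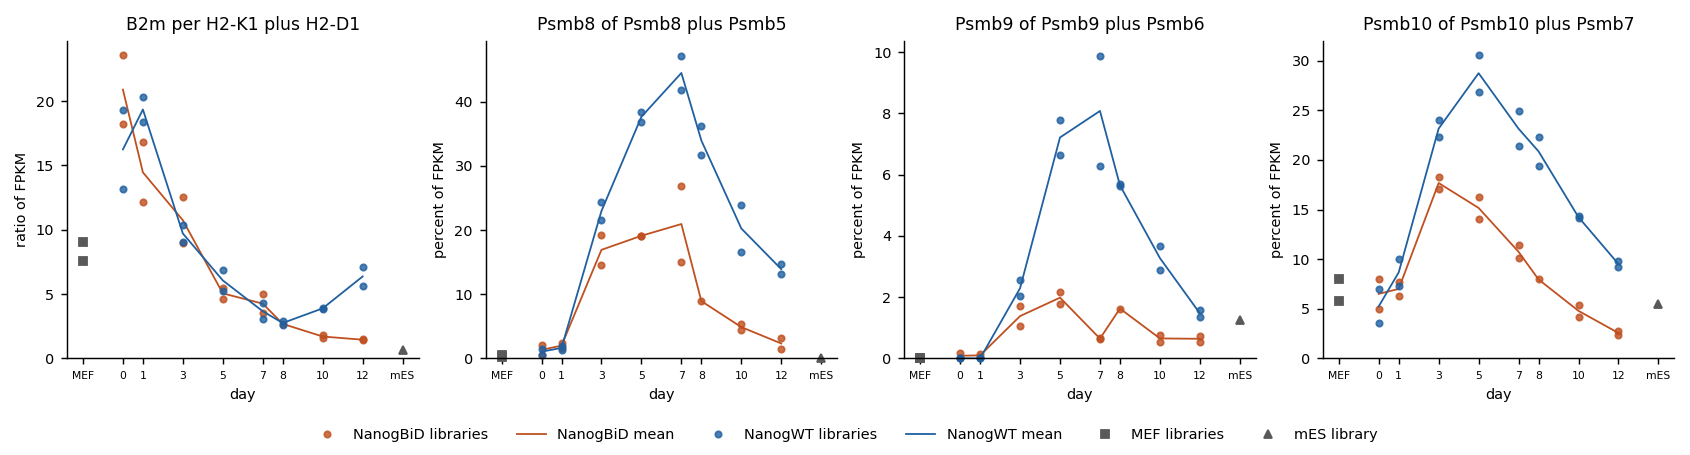
B2m FPKM per FPKM of H2-K1 and H2-D1 summed (first panel) and the share of each immunoproteasome subunit in its pair with the constitutive subunit (other panels, percent of summed FPKM), by day, 1 point per library. B2m per heavy chain ends at 1.41 to 1.5 with NanogBiD and 5.61 to 7.13 with NanogWT.

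Ratios within a library describe how the parts of the pathway moved against each other, and are given without a test. B2m per heavy chain (B2m FPKM over the sum of H2-K1 and H2-D1) was 18.2 and 23.5 at D0 with NanogBiD and 13.2 and 19.3 with NanogWT, and at D7 it was 3.55 and 4.97 and 3.04 and 4.29, lower than at D0 in both. At D8 the NanogBiD library (2.69) lay between those of NanogWT (2.63 and 2.88). The values stood apart at D10, at 1.57 and 1.83 with NanogBiD and 3.87 and 3.91 with NanogWT, and at D12, at 1.5 and 1.41 against 5.61 and 7.13. The mES library had 0.666, and MEF had 9.07 and 7.53. The share of Psmb8 in the sum of Psmb8 and Psmb5, the immuno part of the RNA for that catalytic site, was 0.530 to 2.17% at D0 in NanogBiD and 0.594 to 1.52% in NanogWT. It was 26.9 and 15.0% with NanogBiD and 41.8 and 47.1% with NanogWT at D7, and 3.14 and 1.52% against 13.1 and 14.7% at D12. The share of Psmb10 with Psmb7 was 11.4 and 10.1% against 21.4 and 24.9% at D7. That of Psmb9 with Psmb6 was 0.67 and 0.62% against 6.28 and 9.88%. In all 3 pairs the NanogWT libraries of D7 held the greater share. The constitutive partners had lower means with NanogWT at D7, none of them called, so both parts of the share differed. Psmb5 averaged 34.4 FPKM against 50.6 with NanogBiD, Psmb6 42.3 against 67.5 and Psmb7 51.5 against 67.75. Tap1 stood at 15.8 to 20.4 times Psmb9 in NanogBiD at D7 and at 4.94 to 6.44 times in NanogWT, the starts of these genes being 225 bases apart. At D12 this ratio overlapped (5.97 to 8.19 and 6.85 to 11.7).

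The other genes of the pathway were read from lists of the same kind. As a background to their counts, 1758 of the 16842 genes tested were called in either direction between the combinations at D7. At D10 4676 were called, and at D12 3946. From D0 to D7 2977 were called with NanogWT and 3171 with NanogBiD. Of the constitutive proteasome core, 0 of 14 genes were called by limma between the combinations at D7 (median 0.39, 3 at an unadjusted p below 0.05) or at D12 (median 0.53, 8 at an unadjusted p below 0.05). At D10 1 of 14 was called, higher with NanogBiD (median 0.69, 10 at an unadjusted p below 0.05). From D0 to D7 in NanogWT 0 of 14 were called (median -0.57, 9 at an unadjusted p below 0.05), and of the 3 activator genes Psme1 was called higher (1.36). Of 5 genes for trimming and loading, Erap1, the peptidase that trims peptides in the endoplasmic reticulum, was the one called at D7. It read 18.8 and 20.9 FPKM with NanogWT and 9.44 and 9.28 with NanogBiD at D7, and 8.18 and 12.0 against 1.66 and 1.75 at D12 (log2 differences -1.0 and -2.01). At D12 Tapbpl was called with it (-1.10).

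Of 20 non-classical and class I-like genes, 17 were tested, and at D7 5 were called lower and 1 higher with NanogBiD. H2-Q4 read 96.0 and 77.0 FPKM with NanogWT and 31.8 and 19.6 with NanogBiD at D7 (-1.74), and H2-Q6 (-1.70) and H2-M3 (-1.35) were lower too. H2-Bl went the other way. It was listed at 0 in both NanogWT libraries of D7, against 4.48 and 4.65 with NanogBiD, and read 23.8 and 17.7 with NanogBiD against 0.584 and 1.56 with NanogWT at D12 (log2 difference 3.42), and 5.74 in mES. From D0 to D7 in NanogWT 10 of the 17 were called higher, led by H2-Q4 (5.05), H2-Q6 (3.59) and H2-Q7 (3.09), and Fcgrt was called lower (-1.04). Reads of these copies cannot be told apart with certainty from those of H2-K1 and H2-D1.

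**Figure D4:**
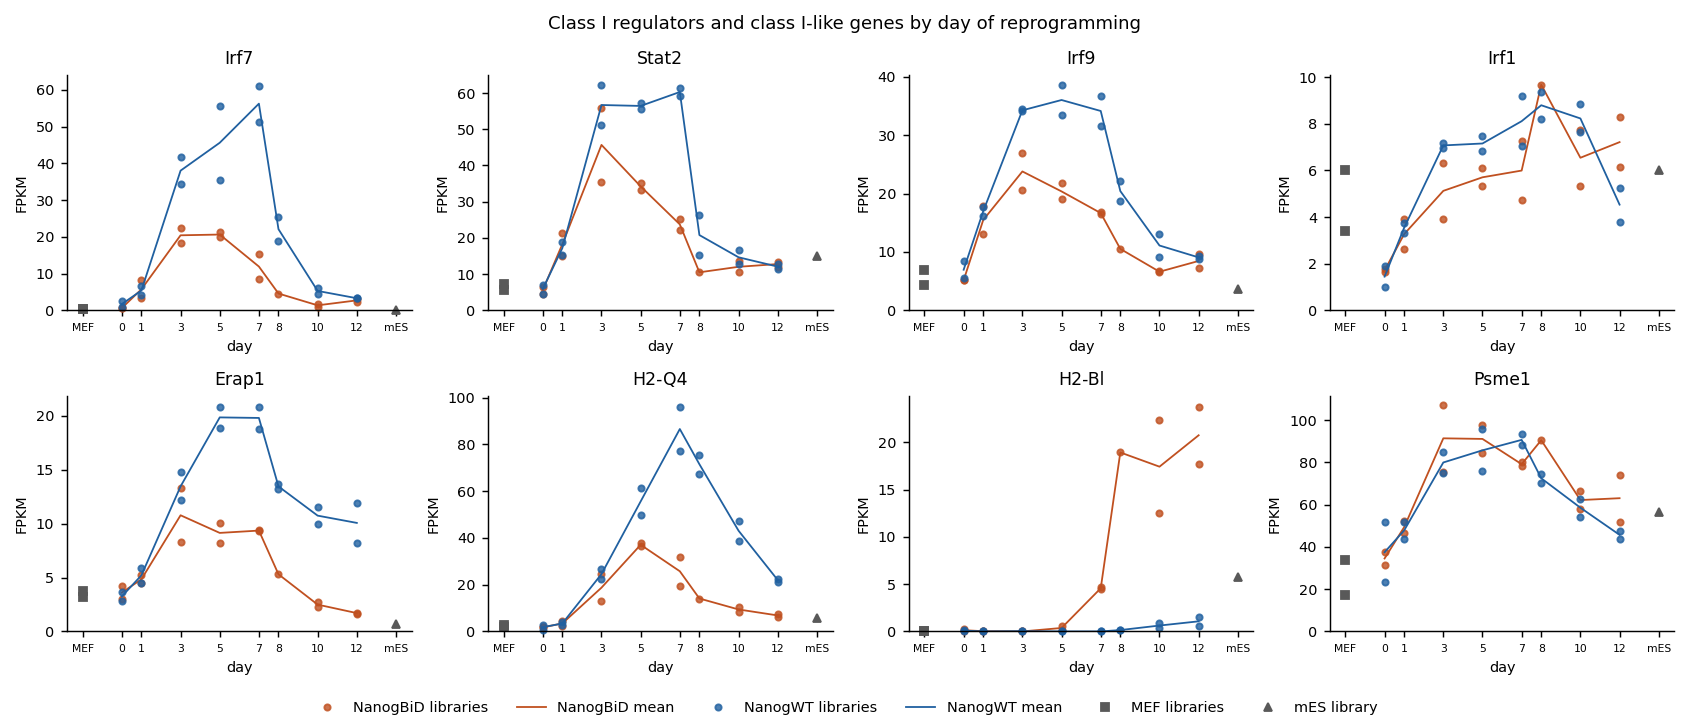
Level in FPKM (vertical axis, a scale of its own in each panel) by day of 8 genes around the members: the factors Irf7, Stat2, Irf9 and Irf1, the peptidase Erap1, the class I-like genes H2-Q4 and H2-Bl, and the proteasome activator gene Psme1, with 1 point per library. Irf7 reads 51.4 to 61.1 at D7 with NanogWT and 8.40 to 15.4 with NanogBiD, and H2-Bl at D12 reads 17.7 to 23.8 with NanogBiD and 0.584 to 1.56 with NanogWT.

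Among 18 regulators of class I genes, 17 were tested. From D0 to D7 8 were called higher with NanogWT and 6 with NanogBiD, and none was called lower. Irf7, the interferon-induced IRF factor, rose by 4.47 and 2.94, and Stat2, a part of the type I interferon signal, by 3.18 and 1.93. Irf9, which joins it in the same complex, rose by 2.17 with NanogWT and 1.52 with NanogBiD. At D7, 3 were called lower with NanogBiD and none higher: Irf7 (-2.20), Stat2 (-1.31) and Irf2 (-1.22). Irf7 read 61.1 and 51.4 FPKM with NanogWT and 15.4 and 8.40 with NanogBiD, and Stat2 read 61.5 and 59.1 against 25.2 and 22.3, with no overlap in either gene. The change of Irf7 from D0 to D7 itself differed between the combinations (-1.53, adjusted p = 0.038), and Irf7 was already lower with NanogBiD at D5 (-1.07, adjusted p = 0.039). From D7 to D12 Irf7 fell by 3.73, Stat2 fell by 2.23 and Irf9 fell by 1.80 with NanogWT, and Irf7 fell by 1.75, Stat3 fell by 1.29 and Rela fell by 1.14 with NanogBiD. At D12 only Rela (-1.07) was called between the combinations. Of 9 interferon receptor and kinase genes, Ifngr1 was lower at D7 (-1.37) and at D12 (-1.10), when Jak1 was lower (-1.24) and Tyk2 higher (1.15). Of 5 class II genes tested, none was called at D7 and none had an unadjusted p below 0.05, and at D12 2 were higher and 1 lower with NanogBiD.

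The time course of the 10 genes, as the mean of their standardized group means over 16 groups, was most like those of 9330182L06Rik (Pearson's r 0.979), Sybu (0.972), Arsb (0.971), H2-Q4 (0.970) and Gm9962 (0.968). These 16 points share libraries and the order of days, so that r is a description. Of these, 9330182L06Rik averaged 38.4 FPKM at D7 with NanogWT and 12.4 with NanogBiD, and H2-Q4 86.5 and 25.7. Each member against the mean of the other 9 gave r from 0.728 (B2m) to 0.978 (Tap2), so B2m is the member whose course stood most apart.

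B2m was the member that stood above MEF at D0, after infection. At D0 against untreated MEF, 1 of 10 members was called higher with NanogBiD (5.82% of the 16915 genes tested) and 1 of 10 with NanogWT (3.69%). It was B2m in both, by 1.72 (SE 0.21, adjusted p = 3.4e-06 by limma) and 1.19 (SE 0.21, adjusted p = 0.00037). B2m in NanogWT was not called without replicate 2 of MEF, nor when the fit held only the compared groups, and Psmb10 was called lower without replicate 1 of NanogWT at D0. In NanogBiD Psmb8 was called in addition without replicate 2 of D0, and Tap1 (0.83, adjusted p = 0.0072) was under the fold limit. The leukocyte markers summed to 56.8 to 103 FPKM in NanogBiD and 55.7 to 166 in NanogWT at D0, against 5.41 to 11.3 in MEF. Lyz2 was the highest of them at D0. Ptprc was below 1 FPKM in all of these libraries, but averaged 0.680 and 0.711 at D0 against 0.0871 in MEF. Cd14 averaged 5.36 with NanogBiD and 8.78 with NanogWT against 1.56, and Cd68 5.89 and 8.53 against 1.55. The other markers of the list were higher on average at D0 as well, except Aif1 in NanogBiD. The part of these markers in the level of B2m was not tested.

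Most of the pathway was low in established iPSC, and several members were below 1 FPKM in MEF too. The same MEF samples read lower for several members in the transcript table than in the gene table. Their means were 3.95 against 14.4 FPKM for H2-D1, 5.89 against 15.5 for Tapbp and 0.743 against 1.76 for Tap1. B2m differed little (166 against 178), and Psmb10 went the other way (6.49 against 5.43). A level below 1 FPKM thus depends on the table, and the cause was not tested. In the transcript table, whose values are compared only within it, B2m read 8.81 (lowest), 18.3 (median) and 103 FPKM (highest) in the 6 NanogBiD iPSC and 13.9, 25.9 and 41.3 in the 6 NanogWT iPSC, against 191 and 141 in MEF and 22.6 in mES. H2-K1 read 1.14, 2.00 and 2.25 and 0.954, 1.87 and 2.90, against 5.65 and 3.58 in MEF and 15.7 in mES, so every iPSC library was below the mES library. H2-D1 read 0.454, 0.909 and 5.17 and 0.0859, 0.872 and 3.43, against 4.01 and 3.89 in MEF and 3.23 in mES. Psmb8 was listed at 0 in all 6 NanogBiD iPSC and in 4 of the 6 of NanogWT, and Tap1, Tap2, Psmb9 and Nlrc5 stayed below 1 FPKM in all 12. The 2 MEF libraries read 0.621 and 0.866 for Tap1, 0.0491 and 0.179 for Psmb8 and 0.131 and 0.0538 for Nlrc5. Psmb9 was listed at 0 in both, and Tap2 read 1.10 and 1.54. Tapbp (2.83 to 7.95 over both groups) and Psmb10 (1.84 to 5.92) were, beside the heavy chains and B2m, the members that passed the filter of 1 FPKM in 2 iPSC samples. In MEF Tapbp read 7.16 and 4.61, and Psmb10 8.06 and 4.93.

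**Figure D5:**
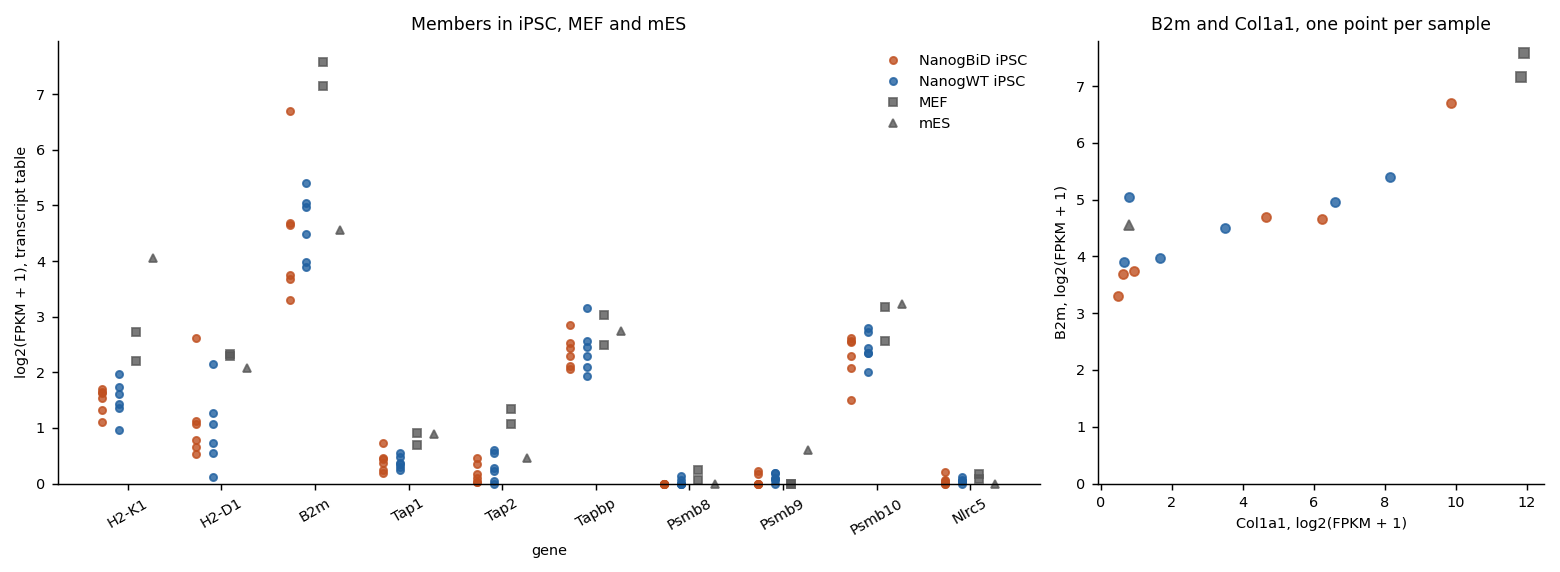
Level of the 10 members in the iPSC, MEF and mES libraries of the transcript table, as log2(FPKM + 1) with 1 point per library, and B2m (vertical) against Col1a1, a collagen gene of fibroblasts (horizontal), on the same scale. NanogBiD iPSC sample 9 has the highest B2m of all iPSC (103 FPKM) and the highest Col1a1 (931 FPKM).

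Between NanogBiD and NanogWT iPSC, with the label iPSC1 or iPSC2 as a term, 0 of 5 members tested were called by limma, and none had an unadjusted p below 0.05. No gene at all was called in this comparison (0.0% of 12456, 201 at an unadjusted p below 0.05), so this count says nothing particular about the members. The difference was 0.02 for H2-K1 (SE 0.16), 0.24 for H2-D1 (SE 0.37) and 0.04 for B2m (SE 0.38). Between iPSC1 and iPSC2, none of the 5 was called (0.883% of all genes called), with 3 at an unadjusted p below 0.05, B2m being higher in iPSC1 by 1.25 (adjusted p = 0.077) and Tapbp differing by -0.55 (adjusted p = 0.046, under the fold limit).

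Against MEF, 2 of 6 members tested were called lower in iPSC, beside 18.7% of the 13312 genes tested. B2m differed by -2.82 (SE 0.63, adjusted p = 0.0011) and H2-D1 by -1.25 (SE 0.48, adjusted p = 0.031). Tap2 (-0.97, adjusted p = 0.00019) and H2-K1 (-0.96, adjusted p = 0.0019) were just under the fold limit, and the count was 4 after rescaling to a common total, which brought the median of all genes from 0.21 to 0.02. H2-D1 lost its call without replicate 1 of MEF (Tap2 then called) or replicate 2 (H2-K1 then called), and 3 were called without NanogBiD iPSC 9, NanogWT iPSC 3 or NanogWT iPSC 2. The iPSC differed among themselves in B2m and in fibroblast genes. NanogBiD iPSC sample 9, which had the highest B2m (103 FPKM) and H2-D1 (5.17), read 931 FPKM for Col1a1, NanogWT iPSC sample 3 read 41.3 for B2m and 285 for Col1a1, and the 3 NanogBiD samples with Col1a1 below 1 FPKM (samples 3, 1 and 2) read 8.81, 12.5 and 11.9 for B2m. The NanogWT samples with Col1a1 below 1 FPKM, samples 6 and 2, read 13.9 and 32.2 for B2m, the latter above NanogWT sample 1 (30.3), whose Col1a1 was 95.7. The summed fibroblast markers ran from 165 to 1735 FPKM in iPSC against 7565 to 8197 in MEF, and their part in B2m was not tested. The heavy chains summed to 1.60 to 6.67 FPKM in iPSC and 18.9 in mES, and B2m per heavy chain was 4.73 to 15.5 in iPSC and 1.2 in mES, so the mES library stood apart from every iPSC in having more heavy chain for its B2m.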

How the data were processed

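The authors trimmed paired reads with Trim Galore 0.6.4, aligned them to mm10 with HISAT2 2.2.1 and assembled and quantified them with StringTie 2.2.1, per the methods and the submitters' processing notes. They deposited FPKM per gene for the 31 time-course libraries, MEF and mES, and FPKM per transcript for iPSC, MEF and mES. The annotation release and the strand setting are not given in the sources used here. No counts were used, so depth is known only in relative terms and no counting interval is given.

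Groups came from the sample labels. Transcript FPKM were summed by symbol. A gene was tested where 2 or more samples reached 1 FPKM, with limma 3.58.1 (R 4.3.3) on log2(FPKM + 1), with an intensity trend, 1 mean per combination and day over all 31 libraries and Benjamini-Hochberg adjustment. A call needs an adjusted p below 0.05 and a log2 difference of at least 1. The study's own test needs reads and was not used. The script was tested on simulated data. Tables and figures were made with matplotlib 3.10.9, pandas 2.3.3, scipy 1.17.1 and numpy 2.4.6 in Python 3.11.15. NanogWT iPSC1 samples 1 and 1-2 share a number in their labels, at different passages, and may not be independent. The SD of their log2 difference (0.417) lay within the range of the other pairs (0.345 to 0.682), nearer its low end. They were kept as 2 samples, and taking them as 1 was not run for iPSC against MEF.

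The 10 members and the other lists were chosen with earlier results of these data known. Named outside the members are up to 3 called genes of each list and direction and the 5 genes with the most similar course. A gene of the regulator list is not reported here and is in none of its counts. Alternatives were a pseudocount of 0.1, no filter, no fold limit, a common total, quantile normalization, the compared groups alone, a replicate block, samples 1 and 1-2 as 1 sample, and leaving out each library. Promoter windows are RefSeq, GRCm38.p6.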

Additional observations from a re-analysis of the deposited data

Results flagged for a closer look

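Within the iPSC groups of 6 samples, 19 sets of member values were examined for a single sample far from the rest (Dixon's test), and chance alone gives about 1 in 20. The 3 found were all of NanogBiD iPSC sample 9, which read 5.17 FPKM for H2-D1, 103 FPKM for B2m and 0.161 FPKM for Nlrc5, and whose Col1a1 level (931 FPKM) was the highest of the iPSC.

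The change from D0 to D7 in NanogBiD minus that in NanogWT, a difference on the log2 scale tested as an interaction in limma, was -1.62 for H2-K1, -1.05 for H2-D1, -1.41 for B2m, -1.48 for Tap1, -1.57 for Tap2, -1.23 for Tapbp and -1.75 for Psmb9. For the change from D7 to D12 it was -3.01 for B2m and 1.53 for Psmb9.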

How the results depend on the processing

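No member value called in any comparison changed sign under any alternative, leaving out single libraries included. Of the values of called members under alternatives, 699 kept their call and 44 lost it. The setting without a fold limit is among these alternatives, and a called member keeps its call there by design. Without the fold limit 1 member was called at D3 (Tapbp), 3 at D5, 2 for NanogBiD at D0 against MEF, 1 between iPSC1 and iPSC2, and 4 for iPSC against MEF. With a pseudocount of 0.1 the NanogBiD count at D0 against MEF was 2. With only the compared groups in the fit the difference in the change from D0 to D7 was called for 4 members and NanogWT at D0 against MEF for 0, the spread then resting on fewer libraries. For iPSC against MEF no filter gave 1 and a common total 4. The cause of the other moves was not tested. Leaving out 1 library gave 1 to 2 members for NanogBiD and 0 to 2 for NanogWT at D0 against MEF.

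The correlation of same-numbered deviations was 0.227 at D0, 0.135 at D1, -0.0647 at D3, -0.0429 at D5, 0.395 at D7, 0.122 at D10 and 0.0202 at D12. It was over 0.1 on 4 of 7 days, not on all, so the numbers were not taken to pair the samples. Replicate 1 had the higher summed leukocyte markers in 15 of 15 pairs of libraries of 1 combination and day; what the numbers share is not stated. With the replicate block the difference in the change from D0 to D7 was called for 8 members and not 7, Psmb8 being added, and the counts of members in the other comparisons within the time course did not move. The block was not run for MEF or iPSC.

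With 2 libraries a group the spread is shared over all groups, and FPKM near 0, as for Psmb9 and Nlrc5, rest on few reads whose number is not known.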
